A study of Mus musculus with 6 samples.

Results

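The kinesin and dynein motor genes were examined in ribosome-bound RNA from the mouse cortex. They are the genes whose symbol begins with Kif and a digit, with Klc and a digit, or with Dync, Dynl or Dnah, taken from probe sets that the array's annotation gives to 1 gene, and each is represented by its brightest probe set. There were 63 such genes, on 141 probe sets, among 18193 named genes. Of the 63, 38 had a mean normalized intensity of 50 or more in at least 1 treatment group and were tested, against 67.1% of all named genes. The other 25 are described by their values alone.

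Kinesins and dynein are the enzymes that carry cargo along microtubules. Most kinesins walk toward the plus ends of microtubules, which in an axon point away from the cell body. Cytoplasmic dynein walks toward the minus ends and so carries endosomes, worn organelles and signals back. In a cortical pyramidal neuron these motors supply the axon and the dendrites with vesicle precursors, mitochondria and receptors. Other members of the families work elsewhere, with mitotic kinesins acting on the spindle of dividing cells and axonemal dyneins bending motile cilia.

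The arrays came from mice that carried a bacTRAP transgene (line ES691), in which the S100a10 promoter on a bacterial artificial chromosome drives a tagged ribosomal protein, so that ribosomes of S100a10-expressing cells can be immunoprecipitated. All mice, controls included, were also constitutive p11 knockouts, p11 being the protein that S100a10 encodes. The strain had been backcrossed to C57BL/6 from FVB for 3 to 5 generations. The FLX group drank 0.167 mg per ml fluoxetine, a selective serotonin reuptake inhibitor, with 1% saccharine, and the VEH group drank 1% saccharine alone, each for 15 to 18 days. There were 3 arrays per group, from separate TRAP replicates, and their number limits the precision of every value below. The labels name neither the age of the mice nor whether a replicate pooled several of them. Per the submitters, some non-neuronal cells carry the tag as well. Below, the 3 values of a group stand in the order of replicates 1, 2 and 3.

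The brightest of 3 probe sets for S100a10 gave 2222, 2037 and 349 on the FLX arrays and 3111, 2248 and 643 on the VEH arrays, while the other probe sets stayed under 50 on every array. Without a wild-type array these values check nothing about the genotype. The arrays of replicates 1 and 2 correlated at r = 0.987 to 0.995 with each other, whereas the replicate 3 arrays of both groups correlated at 0.867 to 0.916 with the rest and at 0.973 with each other. All 7 pyramidal neuron markers measured, Slc17a7 and Camk2a among them, were at 50 or more on every array. So were 7 of 8 interneuron, 7 of 7 oligodendrocyte, 8 of 8 astrocyte, 8 of 8 microglia and 6 of 8 leptomeningeal markers. In such bulk RNA, fewer cells of a type and less RNA per cell cannot be told apart. The 3′ minus 5′ difference of the Gapdh and Actb control probe sets, a measure of RNA quality, averaged 2.08 and 2.19 (log2) on the replicate 3 arrays and 2.09 to 2.33 on the other 4. Its parts differed, with Gapdh at 1.83 on both replicate 3 arrays against 1.99 to 2.32, and Actb at 2.32 and 2.56 against 2.18 to 2.34. Probe sets at 50 or more numbered 21161 and 21158 on the replicate 3 arrays of FLX and VEH and 21596 to 21682 on the other 4.

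Fluoxetine was compared with vehicle first, to ask whether the treatment changed the ribosome-bound RNA of the motors in cells without p11. No motor gene (0 of 38) passed limma's test at an adjusted p of 0.05, where 0% of 12213 genes passed. At an unadjusted p under 0.05, 1 motor gene was left, the axonemal dynein Dnah1, beside 0.303% of all genes. The median log2 difference, FLX minus VEH, was 0.11 over the 38 motor genes and 0.05 over all genes tested. It was above 0 in 29 of the 38, where 58.1% of all genes were above 0. Most members lay near equality, with 28 of the 38 within 0.25 on the log2 scale. Pair by pair, the members had medians of 0.08, -0.0036 and 0.21 for replicates 1, 2 and 3, where all genes had 0.01, -0.01 and 0.15. Of the members, 12 were higher in FLX in all 3 pairs of like number (20.2% of all genes) and 5 lower in all 3 (13.5% of all genes). Without the FLX replicate 3 array the median was -0.00018 and 18 of 37 members were above 0. VEH replicate 3 stayed in that fit, so the replicate 3 difference fell on the VEH side alone. Without both replicate 3 arrays the median was 0.01, with 20 of 37 members and 5918 of 12074 genes above 0. 

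**Figure D1:**
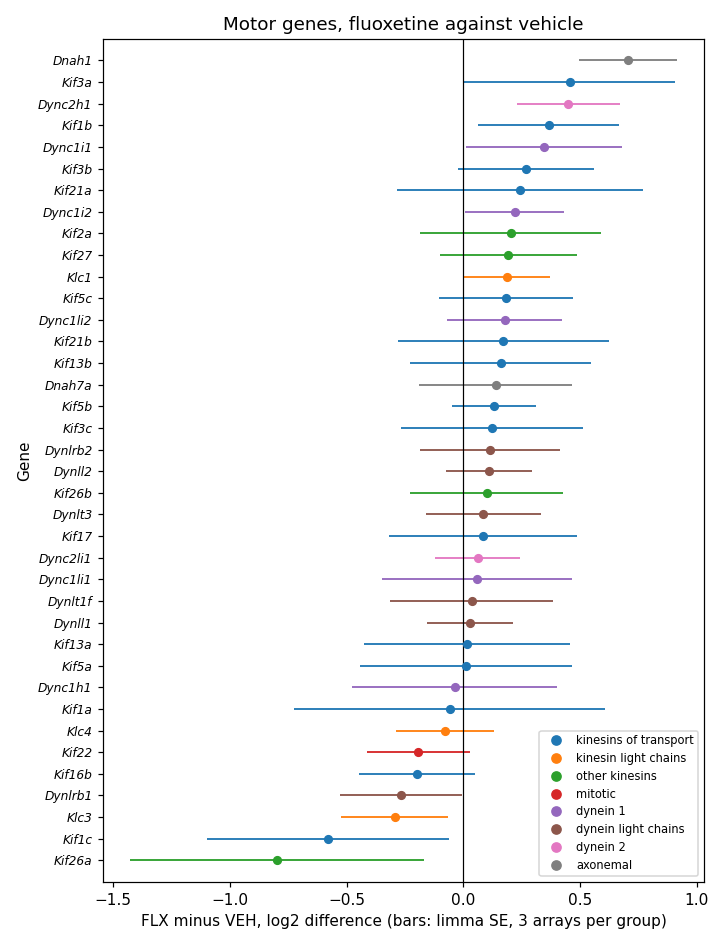
Log2 difference between FLX and VEH arrays for each of the 38 motor genes tested, ordered by size, with bars for limma's SE (3 arrays per group) and colours for the role of the motor. Dnah1 at the top is the 1 gene with an unadjusted p under 0.05, and no gene passed after adjustment. Kif26a and Kif1c lie at the bottom with bars of 0.63 and 0.52. The bars include differences between replicate numbers, and with the replicate number as a block the SE of these 2 genes was 0.24 and 0.21.

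Among the kinesins of transport, all 15 of the genes measured were tested, and 12 had a difference above 0. Kif3a, a subunit of heterotrimeric kinesin that serves both axons and the building of cilia, had the largest, with 1743, 1591 and 3151 on the FLX arrays and 1173, 1083 and 2670 on the VEH arrays. Its FLX array was the higher in every pair, by 0.57, 0.56 and 0.24 (log2), although the groups overlapped because replicate 3 was high in both. The log2 difference was 0.46 (SE 0.45, limma adjusted p = 1.0, n = 3 per group), and without both replicate 3 arrays 0.56 (SE 0.14, limma unadjusted p = 0.0079). The other 3 Kif3a probe sets gave 0.50, 0.42 and 0.46, so all 4 had a like difference. Kif1b, which moves mitochondria or synaptic vesicle precursors depending on its isoform, had 10429 ± 3665 in FLX and 7882 ± 1408 in VEH arrays (SD, n = 3 each) and a log2 difference of 0.36 (SE 0.30). Of its 7 probe sets tested, however, 5 had a difference below 0.

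Kif1c, a widely expressed relative of Kif1b that moves dense-core vesicles, had the largest difference below 0 in this group. It gave 486, 619 and 196 on the FLX arrays and 823, 641 and 374 on the VEH arrays. Its FLX array was lower in every pair, with differences of -0.76, -0.05 and -0.93 (log2), and the groups overlapped. The log2 difference was -0.58 (SE 0.52). The remaining 12 genes ran from -0.20 for Kif16b, an early endosome motor, to 0.27 for Kif3b, the partner of Kif3a. The heavy chains of conventional kinesin, whose light chains bind its cargo, were at 0.01 (Kif5a), 0.13 (Kif5b) and 0.18 (Kif5c). The FLX values of Kif5b, 5173, 5106 and 5577, all lay above its VEH values of 4384, 5096 and 5014, although the nearest arrays, at 5106 and 5096, were close.

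The light chains of conventional kinesin did not share a direction. Klc1, the main neuronal form, had a log2 difference of 0.19 (SE 0.18), and Klc3 and Klc4 had -0.29 (SE 0.23) and -0.08 (SE 0.21). Klc3 was lower in FLX in all 3 pairs, with differences of -0.45, -0.16 and -0.27, but the groups overlapped. Among the other kinesins, Kif26a, an atypical kinesin that binds microtubules without walking along them, had the largest difference below 0 of all motors. It gave 420, 563 and 131 on the FLX arrays and 800, 621 and 327 on the VEH arrays, and the FLX array was lower in every pair, with differences of -0.93, -0.14 and -1.32. The groups overlapped, and the log2 difference was -0.80 (SE 0.63, limma unadjusted p = 0.25). Kif2a, which shortens microtubules and limits axon branching, was at 0.20 (SE 0.39). Kif27, a ciliary kinesin, was at 0.19 (SE 0.29) and passed the minimum through the FLX group alone.

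Cytoplasmic dynein differed little between treatments. Its heavy chain Dync1h1, the subunit with the motor domain, had 1526 ± 670 in FLX and 1532 ± 515 in VEH arrays (SD, n = 3 each). The intermediate chains, which hold cargo adaptors, had differences of 0.35 (SE 0.33) for Dync1i1 and 0.22 (SE 0.21) for Dync1i2. The FLX values of Dync1i2 were 4232, 4300 and 5940 and its VEH values 3956, 4212 and 4113, so the groups did not overlap, though only FLX replicate 3 stood clear. The light intermediate chains Dync1li1 and Dync1li2 were at 0.06 and 0.18. The 6 light chain genes lay between -0.27 for Dynlrb1, a roadblock light chain, and 0.11 for Dynlrb2 and Dynll2. Dynll1, a light chain that also binds many proteins outside dynein, had 43723 ± 1957 and 42984 ± 4162, and its 4 probe sets gave differences of -0.03 to 0.05.

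Dync2h1 and Dync2li1 belong to the second cytoplasmic dynein, which returns cargo from the tip of a cilium. Dync2h1, its heavy chain, gave 78.2, 92.0 and 78.5 on the FLX arrays and 73.4, 60.3 and 50.3 on the VEH arrays. Every FLX value lay above every VEH value, and the log2 difference was 0.45 (SE 0.22, limma unadjusted p = 0.087). Dync2li1, its light intermediate chain, was at 0.06 (SE 0.18). In all, the FLX group lay wholly above the VEH group in 4 of the 38 motor genes tested, Dnah1, Dync2h1, Dync1i2 and Kif5b, the last chosen after its values were seen, where 2.62% of all genes did so. The FLX group lay wholly below in 0 of the 38, where 1.65% of all genes did so. With the replicate number as a block, 0 motor genes passed limma's adjustment and the smallest adjusted p was 0.62, while 5 had an unadjusted p under 0.05 (7.64% of all genes). These were Dnah1, Dync2h1 and Kif3a, higher in FLX, and Kif26a and Kif1c, lower. In the same blocked fit 0 of all genes passed limma's adjustment, but some markers of other cell types had an unadjusted p under 0.05. Of 8 astrocyte markers 4 had an unadjusted p under 0.05, all higher in FLX, led by Gfap with 370, 372 and 1546 on the FLX arrays and 109, 159 and 547 on the VEH arrays (limma unadjusted p = 4.2e-05) and Aqp4 at 1.12 (limma unadjusted p = 0.0035). Of 8 leptomeningeal markers 3 were on the lower side, Foxd1 at -0.79 (limma unadjusted p = 0.0080) among them, as were 2 of 5 endothelial and pericyte markers, Pdgfrb and Acta2. The lists of pyramidal neuron, oligodendrocyte and microglia markers had 0 such genes. Of 8 interneuron markers 1 was higher, Reln (limma unadjusted p = 0.038). The part of any of these cell types in the motor differences between treatments was not tested.

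The axonemal dyneins are the heavy chains that power motile cilia, and they were set against the motors of transport by how many reached the minimum. Of 10 Dnah genes, 2 had a group mean of 50 or more, against 36 of the other 53 motor genes and all 29 genes for kinesins of transport, kinesin light chains, dynein 1 and dynein light chains. Intensities of different probe sets are not on a common scale of abundance, so only the passing of the minimum is compared. The 8 axonemal genes under the minimum stayed between 5.02 and 47.3 on every array. They include Dnah5, Dnah9 and Dnah11 of the outer arm. Dnah9 had 36.1 and 47.3 on the replicate 3 arrays of FLX and VEH and 13.9 to 22.2 on the other 4.

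Dnah1, a heavy chain of the inner dynein arm, gave 103, 94.4 and 116 on the FLX arrays and 64.2, 74.0 and 54.7 on the VEH arrays. Every FLX array was above every VEH array, with replicate 3 the highest of the FLX values and the lowest of the VEH values. The mean was 104 ± 10.8 in FLX and 64.3 ± 9.66 in VEH arrays (SD, n = 3 each), a 1.63-fold ratio with a log2 difference of 0.71 (SE 0.21, limma unadjusted p = 0.015). Adjusted over all 22200 probe sets the p was 1.0, so the difference did not pass. The difference was 0.52 without both replicate 3 arrays and 0.59 to 0.81 with any 1 array left out. Without FLX replicate 3, Kif26a was at -0.17, Kif1c at -0.085, Kif1b at 0.093 and Kif3a at 0.15. VEH replicate 3 stayed in that fit, so the replicate 3 difference fell on the VEH side alone. Without both replicate 3 arrays these genes were at -0.54, -0.40, 0.22 and 0.56, in the same order. A second Dnah1 probe set was under 50 on every array and was not tested. Dnah7a, the other axonemal gene at 50 or more, had 80.8 ± 14.6 and 75.9 ± 25.3, with overlapping groups.

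**Figure D2:**
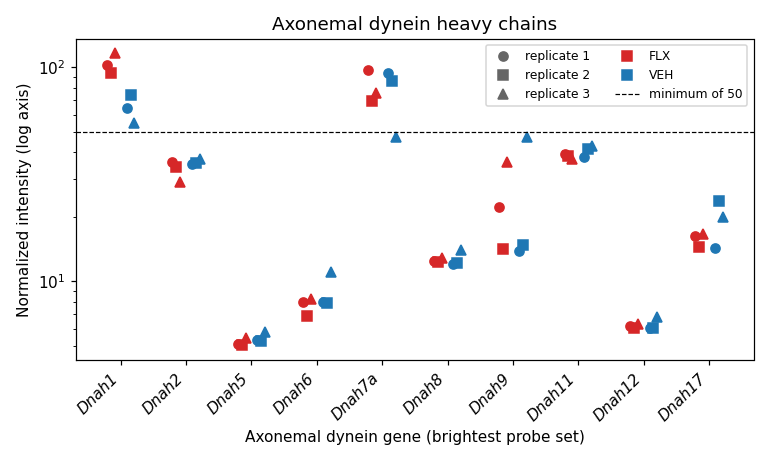
Normalized intensity on a log axis of the 10 axonemal dynein genes, in gene number order, with a symbol for each replicate and a colour for each treatment. Dnah1 and Dnah7a lie around or above the minimum of 50 (dashed line), the other 8 lie below it, and the FLX values of Dnah1 are separate from its VEH values.

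Markers of ciliated cells were read beside Dnah1. Of 23 measured, 11 were under 50 on all arrays, among them Foxj1, the transcription factor of motile cilia, which reached at most 39.6, and Hydin and Tekt2. The list's summed intensity was 5647 to 9367 in FLX and 5685 to 8455 in VEH arrays, so the groups overlapped, but Dnal1, at 3139 to 6118, made up most of it. Of its 11 members tested, 1 had an unadjusted p under 0.05 in limma, Enkur, an axonemal protein, with 190, 156 and 232 on the FLX arrays and 138, 132 and 118 on the VEH arrays. The log2 difference of Enkur was 0.56 (SE 0.22, limma unadjusted p = 0.043, adjusted p = 1.0). Rsph4a and Rsph1, radial spoke proteins of motile cilia, and Ak7 were also higher in FLX in all 3 pairs. Their log2 differences were 0.55 (SE 0.51), 0.36 (SE 0.34) and 0.24 (SE 0.19). In all, 4 of the 11 were higher in all 3 pairs (20.2% of all genes) and 1 lower (13.5%). The FLX group lay wholly above the VEH group in 2, Enkur and Ak7 (2.62% of all genes), and wholly below in 0 (1.65%). The list did not share a direction, with 6 of the 11 above 0, 5 below and a median of 0.09. Those below were Mia (-0.37, lower in all 3 pairs), Ccdc153 (-0.28), Spag6 (-0.13), Tppp3 (-0.05) and Rarres2 (-0.04). With the replicate block, 2 of the 11 had an unadjusted p under 0.05 in limma, Rsph4a (0.014) and Enkur (0.020). The part of ciliated cells in the Dnah1 difference was not tested.

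**Figure D3:**
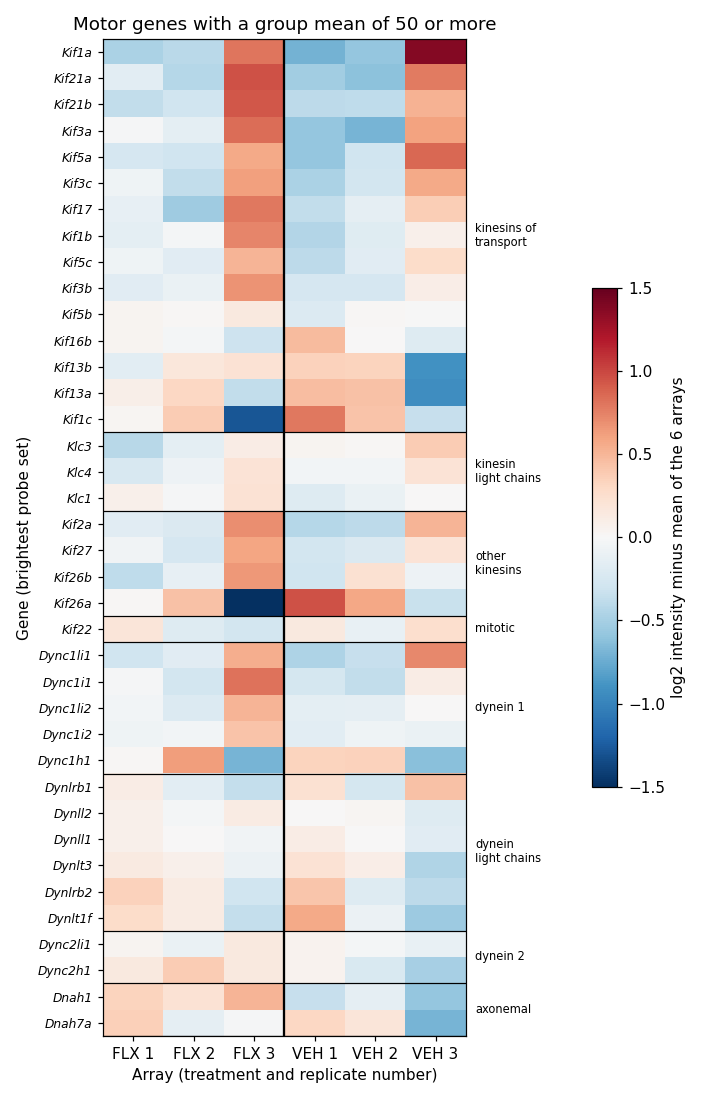
Log2 intensity of the 38 motor genes tested on each of the 6 arrays, relative to the mean of the gene over the arrays, with genes grouped by role. The columns FLX 3 and VEH 3 are high for most kinesins of transport, such as Kif1a and Kif21a, and low for Kif1c, Kif26a and Dync1h1.

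The motor genes differed far more between replicate numbers than between treatments. In a limma fit with treatment and replicate number as terms, 20 of the 38 motor genes differed between replicate 3 and the mean of replicates 1 and 2 at an adjusted p of 0.05, which is near the 54.3% of all genes that did. Of the 20, 14 were higher in replicate 3, beside 23.7% of all genes, and 6 were lower, beside 30.6%. Without FLX replicate 3 the split was 9 higher and 8 lower, and without FLX replicate 2 it was 9 higher and 5 lower. The labels do not say what a replicate number stands for, and the contrast was chosen because these arrays were known to stand apart. The median log2 difference, replicate 3 minus the others, was 0.21 over the motor genes and -0.02 over all genes tested. Shifting all arrays to a common median moved both, to 0.35 and 0.13, and left the gap between them at 0.22. The FLX and VEH arrays gave separate readings of this difference, with medians over the members of 0.30 and 0.15 and the same sign in 31 of 38 members (81.8% of all genes). Across the 38 genes the FLX and VEH readings correlated at r = 0.80, and across all 12213 genes at 0.89, though genes on an array are not independent.

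**Figure D4:**
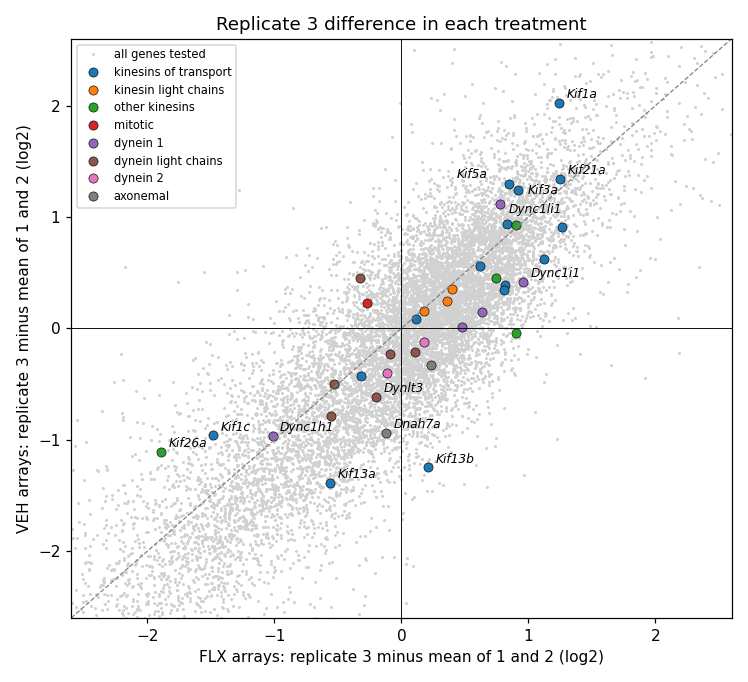
Replicate 3 minus the mean of replicates 1 and 2 (log2) in FLX arrays (x axis) and in VEH arrays (y axis), with motor genes coloured by role and all genes tested in grey, those beyond 2.6 on either axis being left outside the frame. Kif1a, Kif21a, Kif5a and Kif3a lie high in both, Kif26a, Kif1c and Dync1h1 low in both, and Kif13b near 0 in FLX but at -1.25 in VEH arrays.

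Kinesins of transport made up most of the genes that were higher in replicate 3, with 10 of 15 higher and 2 lower. Kif1a, the motor of synaptic vesicle precursors, had 343 and 513 on the replicate 3 arrays of FLX and VEH, and 121 to 148 on the other 4. It was 3.11-fold higher (log2 difference 1.63, SE 0.22, limma adjusted p = 7.6e-04). Kif21a, which restrains microtubule growth, had 2652 and 2345 against 895 to 1228, a log2 difference of 1.29 (SE 0.17, limma adjusted p = 6.6e-04). Its relative Kif21b, found in dendrites, had 593 and 446 against 237 to 252. Kif5a, the neuronal heavy chain of conventional kinesin, had 13754 and 16798 against 6206 to 7803, and its log2 difference was 1.07 (SE 0.19, limma adjusted p = 0.0029). In each of these genes both replicate 3 arrays lay above the other 4, as in 33.0% of all genes. They were named for their large replicate difference, so this separation adds no support.

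The 3 heavy chains of conventional kinesin did not move alike in their brightest probe sets. Kif5c, also a neuronal form, was higher by 0.59 (SE 0.17, limma adjusted p = 0.023), whereas Kif5b, the form made in most cell types, was at 0.10 (SE 0.17) with values of 5577 and 5014 against 4384 to 5173. The difference between these genes was not tested. The kinesin-2 genes Kif3a, Kif3b and Kif3c were higher by 1.08, 0.58 and 0.89, and Kif17, a dendritic motor of that family linked to NMDA receptor transport, by 0.87. Outside the kinesins of transport, Kif2a was higher by 0.91 and Kif27 by 0.60. Kif27 had 78.0 and 59.6 on the replicate 3 arrays of FLX and VEH and 42.5 to 49.8 on the other 4, so it reached the minimum only through the arrays where it was high, and its call is no support for a difference. No kinesin light chain passed (0 of 3 by limma), with Klc1 at 0.17, Klc3 at 0.38 and Klc4 at 0.30.

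A smaller set of motors was lower in replicate 3. Kif26a had 131 and 327 on the replicate 3 arrays of FLX and VEH, and 420 to 800 on the other 4, which is 2.83-fold lower (log2 differences of -1.89 in FLX and -1.11 in VEH arrays, limma adjusted p = 0.0022). Kif1c had 196 and 374 against 486 to 823, a log2 difference of -1.22 (SE 0.22, limma adjusted p = 0.0030). A second, dimmer Kif1c probe set was at -0.07 by replicate and -0.02 by treatment and did not pass. Kif13a, a motor of recycling endosomes, had 490 and 332 against 670 to 874 (log2 difference -0.97, limma adjusted p = 0.0090), but -0.56 without VEH replicate 3, and its other 2 probe sets tested, at -0.44 and -0.22, did not pass. The replicate 3 arrays lay below the other 4 in all of these genes, as in 35.2% of all genes. They too were named for their large replicate difference. Kif13b, its closest relative, did not pass, with 200 in FLX replicate 3 but 91.5 in VEH replicate 3 against 155 to 218.

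The subunits of cytoplasmic dynein 1 split in direction. Dync1h1 had 892 and 937 on the replicate 3 arrays and 1459 to 2227 on the other 4, a log2 difference of -0.99 (SE 0.19, limma adjusted p = 0.0039). Dync1li1 was higher, with 742 and 834 against 369 to 453 (0.95, SE 0.18, limma adjusted p = 0.0034), and so was Dync1i1, with 7847 and 4820 against 3469 to 4425 (0.69, SE 0.19, limma adjusted p = 0.019). The heavy chain thus went one way and 2 of its partner chains the other. Of the light chains, Dynlrb2 and Dynlt1f were lower, with log2 differences of -0.52 and -0.67, and the other 4 did not pass. The Dynlt1f value comes from an x_at probe set, and other probe sets of that cluster are annotated to several Dynlt1 copies, so it may hold RNA from any of them. Of the 20 calls, 12 held with any 1 array left out, 8 higher (Kif1a, Kif2a, Kif3a, Kif3c, Kif5a, Kif21a, Kif21b, Dync1li1) and 4 lower (Kif1c, Kif13a, Kif26a, Dync1h1). The call of Dync1i1 was lost without FLX replicate 2 or 3, that of Kif17 without FLX replicate 3, and that of Kif5c without FLX replicate 2, VEH replicate 1 or VEH replicate 2. The calls of Kif1b, Kif3b, Kif27, Dynlrb2 and Dynlt1f were each lost on leaving out 3 or more of the 6 arrays, 1 at a time.

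Cell type markers also differed between replicate numbers. Summed pyramidal neuron markers were 19786 and 22551 on the replicate 3 arrays and 10342 to 13414 on the other 4, and interneuron markers 34057 and 44264 against 16087 to 22299. Oligodendrocyte markers were 65213 and 66314 against 24594 to 28449. Leptomeningeal markers ran the other way, at 3378 and 7022 against 41325 to 72100, as did astrocyte markers at 8655 and 11524 against 18455 to 30160. Microglia markers were at 2186 and 2654 against 3174 to 4404, and endothelial and pericyte markers at 2091 and 2144 against 3252 to 6453. Not all members of a list moved with its sum. Of all genes, limma called 23.7% higher and 30.6% lower in replicate 3, so many of any list would be called. By limma, 5 of 7 pyramidal neuron markers were higher and 1 lower, and 4 of 8 interneuron markers were higher and 0 lower. Oligodendrocyte markers divided into 3 higher and 3 lower of 7. All 8 leptomeningeal markers were lower. Of 8 astrocyte markers 2 were higher and 4 lower, and of 8 microglia markers 0 were higher and 4 lower. Of 5 endothelial and pericyte markers tested 1 was higher and 3 lower, Pecam1, Flt1 and Tek being under 50 on all arrays. The part of these cell types in the motor differences was not tested.

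Upstream sequences are shown for motors at both ends of the replicate difference. The sign of that difference was the same in the FLX and the VEH arrays for these motors, as for 81.8% of all genes. Taken were the largest differences in each direction among called genes with exactly 1 promoter entry, which leaves out Kif1a and Kif21b, in RefSeq (GRCm38.p6), which were Kif21a and Kif3a (higher) and Kif26a and Kif1c (lower), together with Dnah1, the gene with the largest treatment difference above 0. Each line gives the 250 bases before the gene's start, 5′ to 3′ on the gene's strand, with every GC box (GGGCGG or its reverse complement CCGCCC, overlaps counted) in capitals. The windows are Kif21a at chr15:91049952-91050201 (minus strand), Kif3a at chr11:53567119-53567368 (plus strand), Kif26a at chr12:112145958-112146207 (plus strand), Kif1c at chr11:70700298-70700547 (plus strand) and Dnah1 at chr14:31323897-31324146 (minus strand).
Kif21a: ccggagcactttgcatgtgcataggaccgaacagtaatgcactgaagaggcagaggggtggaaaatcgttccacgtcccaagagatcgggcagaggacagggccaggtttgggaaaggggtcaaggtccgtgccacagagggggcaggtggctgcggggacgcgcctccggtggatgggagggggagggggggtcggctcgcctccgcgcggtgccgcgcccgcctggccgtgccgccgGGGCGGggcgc
Kif3a: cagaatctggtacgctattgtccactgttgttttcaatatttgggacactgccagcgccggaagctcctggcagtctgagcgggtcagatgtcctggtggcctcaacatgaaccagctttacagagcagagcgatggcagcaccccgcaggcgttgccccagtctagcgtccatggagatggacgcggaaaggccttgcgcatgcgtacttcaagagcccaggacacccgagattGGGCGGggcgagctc
Kif26a: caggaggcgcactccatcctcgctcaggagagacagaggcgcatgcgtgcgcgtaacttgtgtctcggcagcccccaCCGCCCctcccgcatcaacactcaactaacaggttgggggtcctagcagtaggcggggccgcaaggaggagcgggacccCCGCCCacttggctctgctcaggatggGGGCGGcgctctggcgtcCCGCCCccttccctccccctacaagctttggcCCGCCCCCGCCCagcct
Kif1c: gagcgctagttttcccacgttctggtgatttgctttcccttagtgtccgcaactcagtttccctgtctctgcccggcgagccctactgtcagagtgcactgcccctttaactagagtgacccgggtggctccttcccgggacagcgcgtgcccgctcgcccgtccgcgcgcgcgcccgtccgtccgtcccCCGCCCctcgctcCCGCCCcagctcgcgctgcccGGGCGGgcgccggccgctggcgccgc
Dnah1: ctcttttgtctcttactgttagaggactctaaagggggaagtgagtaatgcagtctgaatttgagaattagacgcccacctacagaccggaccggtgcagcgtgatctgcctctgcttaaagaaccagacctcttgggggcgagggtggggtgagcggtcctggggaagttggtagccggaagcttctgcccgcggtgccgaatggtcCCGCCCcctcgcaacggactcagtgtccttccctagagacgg

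The windows of Kif21a, Kif3a and Dnah1 held 1 GC box each, Kif1c held 3 and Kif26a held 6. A GC box was present in 32.7% of 32851 mouse promoter windows of that length and in 32 of the 54 motor genes with a promoter entry, the first listed entry being used where there were several. It was found in 6 of 12 motor genes higher in replicate 3, 6 of 6 lower and 9 of 13 not called. CpG dinucleotides numbered a median of 22 in the windows of 11 kinesins of transport and 6 in those of 10 axonemal dyneins, beside 6 over all promoters. The windows over all promoters hold every entry of a gene, detected or not, while each motor gene enters once and the called sets hold tested genes only. The shares and medians are therefore of unlike sets. These are counts of letters in the window and were not tested.

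Probe sets of 1 gene did not always give the same call by replicate number. Of 19 motor genes with 2 or more probe sets tested, all probe sets were higher in replicate 3 in 9, including 4 of 4 for Kif3a (log2 differences 0.91 to 1.09), 3 of 3 for Kif5c, Kif3b and Kif17, and 2 of 2 for Kif5a and Kif1a. Over all 76 probe sets of motor genes tested, 35 were higher and 9 lower. Of all probe sets 53.0% were called in either direction. Their shares by direction were not computed, so the split has no like figure beside it. For Kif5b, 2 of 5 probe sets were higher, by 0.80 and 0.57, although the brightest was not. The second probe sets of Dync1li2 (0.99, higher), Dynll2 (-0.56, lower) and Kif16b (-0.70, lower) passed where the brightest did not.

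Klc1 was the 1 gene with calls in both directions. Its brightest probe set gave 45465 and 39496 on the replicate 3 arrays against 34240 to 41430 on the other 4 and was not called. A second gave 312 and 192 against 635 to 1140, a log2 difference of -1.90 (SE 0.30, limma adjusted p = 0.0015). The third gave 176 and 160 against 74.6 to 139 and was higher by 0.69 (SE 0.17, limma adjusted p = 0.010). Kif1b divided in a similar manner, with 4 of 7 probe sets higher by 0.60 to 1.78 and the other 3 at -0.28, -0.50 and -0.80 without passing. The labels do not say which transcripts these probe sets match.

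**Figure D5:**
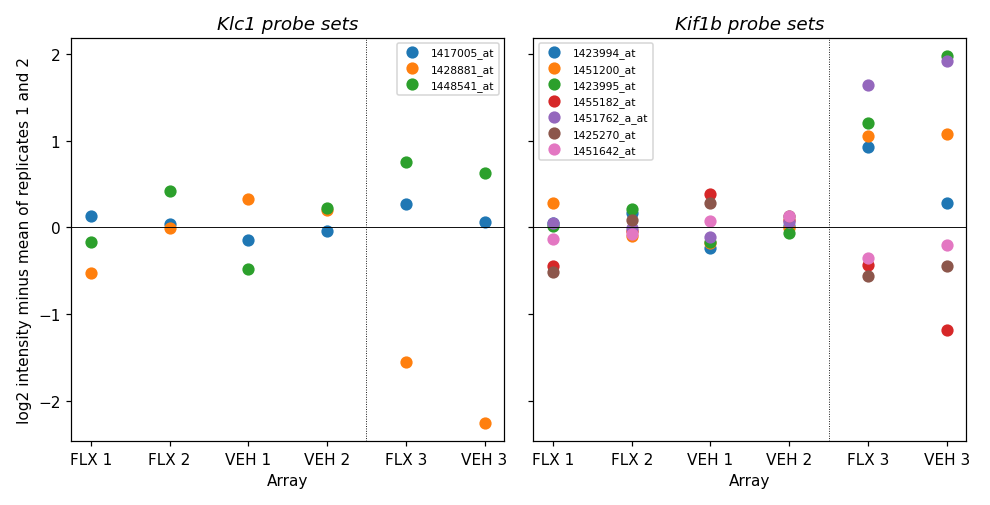
Log2 intensity of each tested probe set of Klc1 (left, 3 probe sets) and Kif1b (right, 7 probe sets) on the 6 arrays, relative to its mean over replicates 1 and 2. On the replicate 3 arrays 1 Klc1 probe set lies low and another high, and 4 Kif1b probe sets lie high while 3 lie low.

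Mitotic kinesins, which build and pull the spindle, were mostly under the minimum. Of 11 genes 1 was tested, Kif22, a kinesin that rides on chromosome arms, and its value came from an x_at probe set at 1069 to 1542 while its other 2 probe sets stayed at 13.8 to 39.9. The other 10, among them Kif11, Kif20a and Kif23, ran from 6.95 to 62.6. Only Kif2c and Kif11 reached 50 on an array, at 62.6 and 54.9 in VEH replicate 3. Proliferation markers were low as well, with 11 of 16 under 50 on all arrays, Mki67, Top2a and Cdk1 included. A further 7 kinesins under the minimum, such as Kif7, a regulator of Hedgehog signalling at the cilium, lay between 6.12 and 44.3.

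Partners of the motors were read from lists of dynactin subunits and of adaptors and regulators. Dynactin, which dynein needs to move processively, had 6 of 10 subunits above 0 between treatments (58.1% of all genes). Their median log2 difference was 0.01, and 0 passed limma's adjustment (0 at an unadjusted p under 0.05). The smallest unadjusted p were those of Capza1 at -0.26 (SE 0.20) and Dctn3 at 0.23 (SE 0.23). Among adaptors and regulators 30 of 33 were above 0 (58.1% of all genes), with a median of 0.15 (0.05 over all genes). In all 3 pairs 13 were higher in FLX and 0 lower, where 20.2% and 13.5% of all genes were. Without both replicate 3 arrays 24 of the 33 adaptors and regulators were above 0. None of them (0 of 33) passed limma's adjustment, and 0 had an unadjusted p under 0.05. Fez1, a kinesin adaptor of axonal transport, had 2644 ± 315 in FLX and 2128 ± 163 in VEH arrays (SD, n = 3 each), a log2 difference of 0.31 (SE 0.19). Rhot1, which ties mitochondria to motors, had 0.39 (SE 0.25).

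By replicate number, beside the 23.7% and 30.6% of all genes, 4 dynactin subunits were higher in replicate 3 and 0 lower, and 12 adaptors were higher and 6 lower. The 4 partners described next were chosen after their values were seen. Dctn1, the subunit that binds dynein and microtubules, was higher by 0.92 (SE 0.20, limma adjusted p = 0.0063), while the dynein heavy chain Dync1h1 was lower. Grip1, which links Kif5 to AMPA receptors, had 760 and 896 on the replicate 3 arrays of FLX and VEH and 121 to 198 on the other 4 (log2 difference 2.44, SE 0.20). Kifap3, the cargo subunit of heterotrimeric kinesin, was higher by 1.00 (SE 0.17), as were its motor subunits Kif3a and Kif3b. Clstn1, a kinesin light chain cargo adaptor, was lower, with a log2 difference of -1.28 (SE 0.22).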

How the data were processed

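Ribosome-bound cortical RNA was measured on 6 Affymetrix arrays, 3 FLX and 3 VEH, from 15 ng of RNA each per the labels' protocols. The deposited intensity values, 1 column per array, were GCRMA-normalized by the authors per the submitters' processing notes. No GCRMA version was found in the sources used, and values of 1.60 to 76587 show that they are linear. GCRMA includes quantile normalization, so a change shared by most genes would be reduced. Probe sets were named from the platform annotation (34945 of 45037 with 1 gene, 932 with several, 9160 unnamed here), and 64 controls were left out.

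Log2 intensities, with no pseudocount, were tested with limma 3.58.1 in R 4.3.3 (two-sided, Benjamini-Hochberg over 22200 probe sets with a mean of 50 or more in at least 1 group). The tests were checked on simulated arrays with independent noise. For the treatment test these held no difference between replicate numbers, so the check does not cover that feature of the data. Treatment was the only term of the treatment test, so differences between replicate numbers stayed in its SE. With the replicate number as a block the SE went from 0.45 to 0.16 for Kif3a. It went from 0.63 to 0.24 for Kif26a and from 0.52 to 0.21 for Kif1c. The replicate comparison had treatment and replicate number as terms. FLX and VEH arrays share numbers 1 to 3, and deviations from the group means correlated at r = 0.70, 0.84 and 0.87 within numbers, so the numbers were taken as pairing the arrays. Unlike numbers 1 and 2 also correlated, at up to 0.76, so the pairing rests mainly on replicate 3. The submitters' recommended probe set list was not used here. P-values measure only the spread between these samples.

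Genes were named by rule, as the 3 smallest unadjusted p per role, the 10 largest replicate differences, the largest treatment difference in each direction, each Dnah gene at 50 or more and 2 per partner list. Others complete their role and were chosen after their values were seen. The members and lists were chosen with earlier results of these data known. Promoters came from RefSeq (GRCm38.p6), matched by symbol for 54 of 63 genes. Alternatives covered the filter, a pseudocount of 16, the probe sets used, array scaling, the variance model, a replicate block and arrays left out. Figures were drawn with matplotlib 3.10.9.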

Additional observations from a re-analysis of the deposited data

How the results depend on the processing

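With the replicate block, 0 probe sets and 0 motor genes passed between treatments, as without it, and it changed no call. The same count of 0 was obtained under every other alternative, with 1 array left out included. The treatment median of the motor genes, 0.11, ran from -0.00018 to 0.19 with 1 array left out. It was lowest without FLX replicate 3, where VEH replicate 3 stayed in unmatched. The motor genes called by replicate number, 20, ran from 14 to 20 with 1 array left out, and the median replicate difference from 0.15 to 0.30. The count was 24 with no minimum, 23 with the mean of all probe sets and 22 (17 higher, 5 lower) with a common median. That median was 0.35 with arrays shifted to a common median, since that scaling moves all genes. With no minimum 10 axonemal genes were counted, by construction. No difference that was called reversed. Signs of treatment differences were followed only for genes named by rule for that comparison or from the partner lists. Among them, Dynll2 (-0.060) and Capza1 (0.17) changed sign without x_at and s_at probe sets, where other probe sets stand for these genes. Dync2li1 (-0.041) and Dnah7a (-0.13) did so without both replicate 3 arrays. None of these differences was called. Other motor genes also changed sign without both replicate 3 arrays, such as Kif13b (0.16 to -0.33) and Kif1a (-0.06 to 0.20). Among the genes followed, the range with 1 array left out crossed 0 for Klc4 (-0.20 to 0.024), Kif2a (-0.097 to 0.51), Dync1li2 (-0.035 to 0.32), Dynlrb2 (-0.054 to 0.35) and Dnah7a (-0.17 to 0.33). For these the cause was not tested. With 1 array left out, a group of 2 is assumed to vary like the other. Precision is limited by 3 arrays per group, and Dnah1, Dnah7a, Dync2h1, Dynlrb2, Dynlt1f, Kif26b and Kif27 lie near the minimum of 50. Dynlrb2 and Dynlt1f, both called lower in replicate 3, had 63.2 and 61.5 on its FLX array and 59.1 and 54.0 on its VEH array.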

Other observations

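The C-terminal kinesins, which walk toward the minus ends of microtubules and whose symbols fall outside the rule for the motor genes, were measured on the same arrays. Of 4 genes 3 were tested. Kifc3 had 582 and 932 on the replicate 3 arrays of FLX and VEH and 306 to 349 on the other 4, a log2 difference of 1.18 (SE 0.22, limma adjusted p = 0.0038). Kifc2, a neuronal member, was at -0.05 (SE 0.18), with 1894 to 2484 over the 6 arrays. Kifc1 lay between 28.7 and 51.4, and Kifc5b at 9.46 to 10.5. Between treatments 0 of the 3 passed limma's test, with 0 at an unadjusted p under 0.05 and differences of -0.12, 0.13 and 0.33 for Kifc3, Kifc2 and Kifc1. Kifc1 reached the minimum through the FLX group alone, so its difference supports nothing. A further 5 probe sets are annotated to several genes that include a motor gene, and they were not used.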
